A study of Mus musculus with 40 samples.

Results

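The proteasome genes described here are the protein-coding genes of the count table whose mouse symbol is Psm, a letter from a to g and a number. The rule found 50 such genes among 52636 rows, after 4 pseudogenes were set aside, and used no measured value. Of the 50 genes, 48 passed a filter on low counts and were tested. The testis subunit Psma8 (highest count in any mouse 14) and the thymus subunit Psmb11 (highest count 2) did not pass. Another 2 genes match by symbol only: Psmc3ip, which encodes a partner of meiotic recombinases, and Psme2b, a single-exon copy of Psme2. The 31 subunits of the constitutive 26S proteasome that carry Psm names, called core subunits below, all passed the filter. The subunits Sem1 and Adrm1 lie outside these names and are described with the partners.

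The 26S proteasome degrades proteins that carry chains of ubiquitin. Its 20S barrel has outer rings of alpha subunits, which gate the entrance, and inner rings of beta subunits, of which Psmb5, Psmb6 and Psmb7 encode the ones that cut peptide bonds. The 19S cap has a base with a ring of ATPases, which unfold and thread the substrate, and a lid, which removes the ubiquitin. Under interferon-gamma and in immune cells, Psmb8, Psmb9 and Psmb10 take the places of the cutting subunits and form the immunoproteasome. In brown fat, the heat-producing fat, the transcription factor Nfe2l1 is known to raise proteasome genes during adaptation to cold.

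Brown adipose tissue came from 40 male C57BL/6 mice, given as 10 to 14 weeks old in the sample labels and as up to 12 weeks in the series text, in 8 groups of 5. The control was an isotype antibody against ragweed at 40 mg/kg. Jag antibody mice received blocking antibodies against the Notch ligands Jag1 and Jag2, 20 mg/kg of each. Each dose was given once into the abdomen, and tissue was collected at 15 h, 5 d or 7 d. One further control group and one further Jag antibody group had thyroid hormone injected daily from day 2, T4 at 1 ug/g and T3 at 0.05 ug/g of body weight, until collection at 7 d, and the labels record no mock injection for the mice without hormone. No label names a transgene or a deletion, antibody and hormone reached the whole animal, and the labels do not say that any mice were pooled. From its title, the study is about what Notch in the thyroid does for the adult body. The comparisons are Jag antibodies against control at each time, and hormone against none under each antibody.

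Total RNA was read as single-end 50 bp reads, with 12217623 to 36511893 counts per library. Brown adipocyte markers, Ucp1 among them, were present in every group, their 10 genes summing to 8530 to 70100 CPM (counts scaled to library size) per library. The control mice at 7 d differed from those with hormone in library properties. The TMM factor, which scales a library's total, was 0.647 to 0.926 in the control mice at 7 d. In the control mice with hormone it was 1.01 to 1.18, without overlap. The length slope is the change of a library's log2 CPM, relative to the mean library, with each doubling of a gene's exonic length. It was -0.54 to -0.06 in the control mice at 7 d and 0.04 to 0.25 in the control mice with hormone, without overlap, and 2 of the control mice at 5 d were at -0.38 and -0.45. The slopes at 7 d without hormone overlapped those of both groups at 5 d and of the Jag antibody mice at 7 d. The members are short: their principal transcripts had a median of 1408.5 bases, against 2683 bases over 17050 tested genes. Skeletal muscle RNA was uneven as well, with 8 muscle genes summing to 1020 to 176000 CPM in the control mice at 5 d and 0.878 to 43.9 CPM in the Jag antibody mice at 5 d. At 7 d without hormone they summed to 4 to 23000 CPM in control mice and 13.9 to 51100 CPM in Jag antibody mice. Some of the results below are given with these properties.

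The tissue carried RNA of all 31 core subunits. Levels between genes are given per length, as CPM per kb of principal transcript, averaged over the 40 mice. The 21 core subunits with little shared sequence ranged from 28.8 CPM per kb (Psma2) to 224 CPM per kb (Psma6, an alpha ring subunit). The 10 core subunits that share 10% or more of their 50-base windows with another annotated gene ranged from 2.13 to 92.2 CPM per kb. Psma5, Psmb5 and Psmb3, which share 55.4%, 57.1% and 55.8% of their windows, stood at 2.13, 4.63 and 20.9 CPM per kb. These subunits occur in the barrel in equal number with the others. How the submitters' counting treated a read that fits several places is not given in the sources used here, so the levels of these genes are uncertain. Over all 50 genes, 16 shared 10% or more, and Psme2 and Psme2b shared most of their windows with each other (59.3% and 69.3%). The immunoproteasome subunits stood lower than most core subunits per length, as the plot of level against shared sequence shows.

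**Figure D1:**
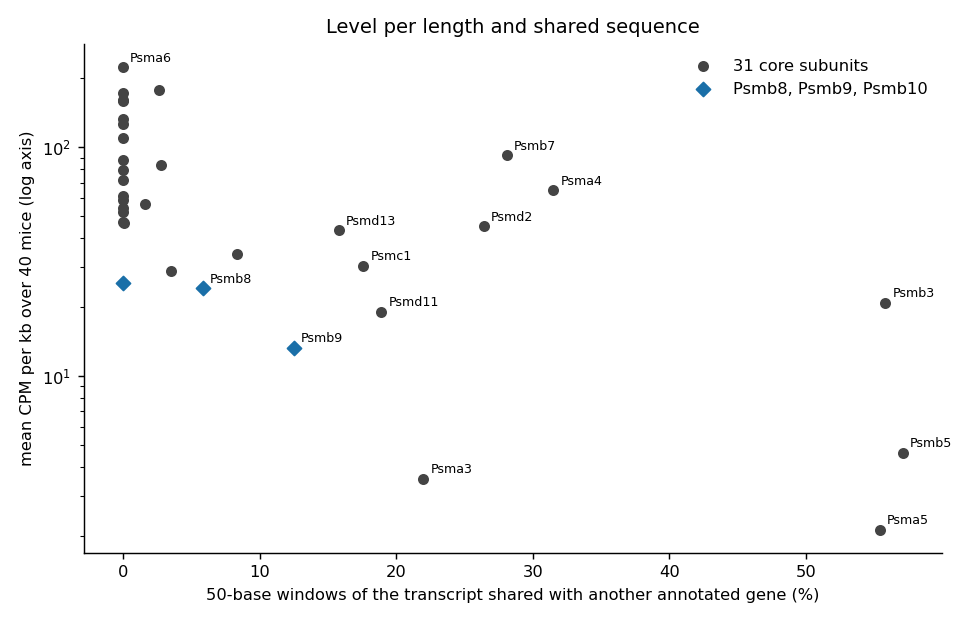
Mean level over 40 mice in CPM per kb of principal transcript (log axis) against the percent of 50-base windows that the transcript shares with another annotated gene, for 31 core subunits (grey circles) and 3 immunoproteasome subunits (blue diamonds). Psma5, Psmb5 and Psma3 lie lowest and each shares windows with other genes (Psma5 55.4%, Psmb5 57.1%).

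The groups were first compared by a core level for each mouse, the median over the 31 core subunits of log2 CPM centred on the gene's mean. It is a description and was not tested. At 15 h the mice lay close together, from -0.33 to -0.07 in control mice and from -0.29 to -0.12 in Jag antibody mice. At 5 d they spread widely, from -0.50 to 0.90 in the control mice and from -0.43 to 0.22 in the Jag antibody mice. Control mice at 7 d had the highest group mean, 0.52, with single mice at 0.47, 0.68, 0.80, 0.43 and 0.22. With hormone the control mice fell between -0.39 and -0.03, so these groups did not overlap. The Jag antibody mice lay between -0.09 and 0.48 without hormone and between -0.37 and -0.06 with it, and these ranges overlapped. Control mice at 7 d held the highest group mean for 27 of the 31 core subunits.

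The core level moved with the length slope, with exceptions. Both control mice at 5 d with a length slope of -0.38 or -0.45 had the highest core levels of their group, 0.46 and 0.90. The trend with length and GC content of the principal transcript was then taken out of each library. After that the control mice at 7 d stood at 0.15 to 0.28 and those with hormone at -0.05 to 0.14. The groups still did not overlap, but the means lay 0.22 and 0.04, against 0.52 and -0.21 before. Scaled by library totals in place of TMM, the core level was 0.11 to 0.27 without hormone and -0.25 to 0.15 with it. These ranges overlap, and the means were 0.18 and -0.08. As a share of all counts, the core subunits took 0.345% to 0.380% without hormone and 0.268% to 0.351% with it, which overlap. Jag antibody mouse 6 at 7 d had a slope of only -0.03 and a core level of 0.48. Its core level was 0.46 with the trend removed and its share 0.499%, each the highest of any mouse. Whether these library properties or the state of the tissue set the core level cannot be told apart. Every control mouse at 7 d without hormone had a negative slope and a TMM factor below every control mouse with hormone.

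**Figure D2:**
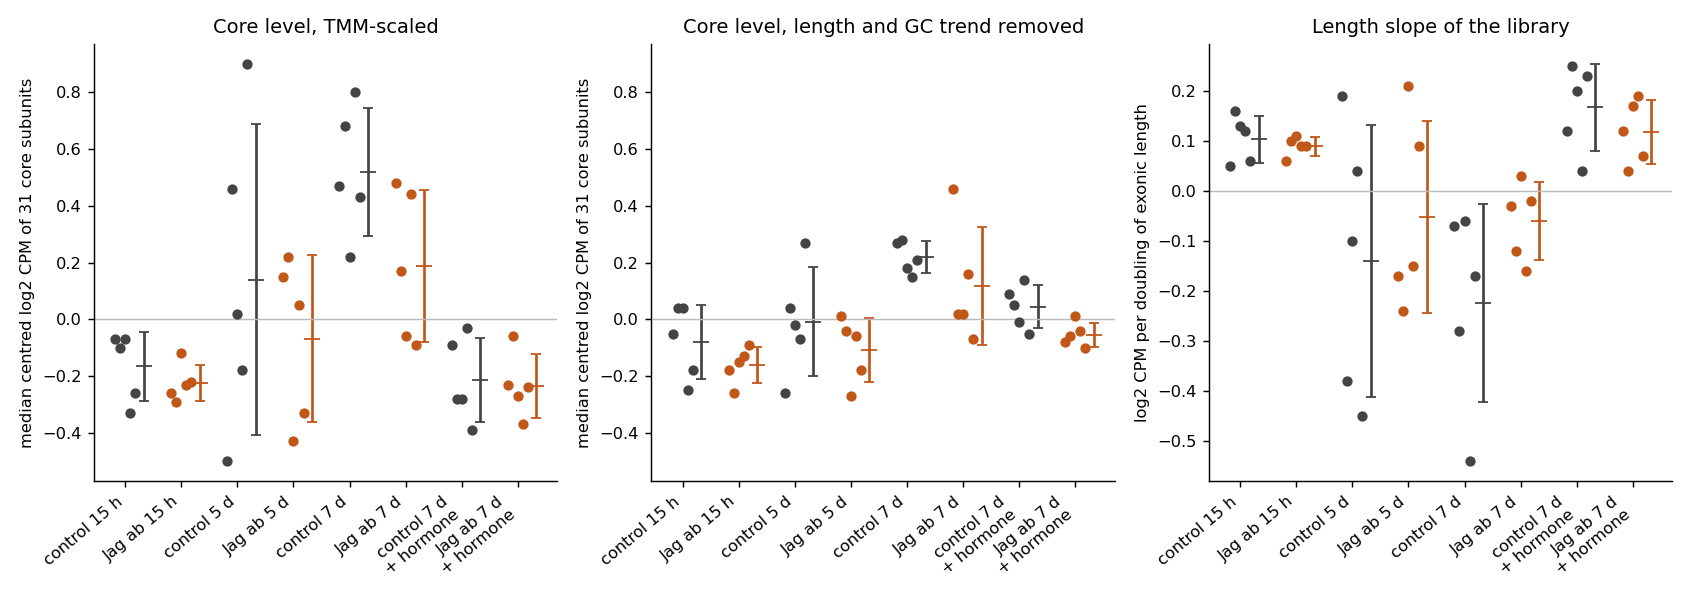
Each point is 1 mouse (control antibody in grey, Jag antibodies in orange), with the group mean and SD at its right, n = 5 per group. Left, core level of 31 subunits in log2 CPM, middle, the same after the length and GC trend was removed, on the same axis, and right, the length slope of the library; control mice at 7 d without hormone have the highest mean at the left (0.52), though the highest single mouse is a control at 5 d (0.90), and have only negative slopes at the right.

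Spread between mice differed by group and by type of subunit. The median SD of the core subunits was 0.14 and 0.12 on the log2 scale in the control and Jag antibody mice at 15 h, and 0.62 and 0.32 at 5 d. Over 12140 genes at a log2 CPM of 1 or more it was 0.32 and 0.22 at 15 h. At 5 d it was 0.51 and 0.33, so the wider spread at 5 d was not particular to the core subunits. Psmb8, Psmb9 and Psmb10 had a median SD of 0.56 and 0.83 at 15 h, when the core subunits varied least. Their median SD was below that of the core subunits in control mice at 5 d (0.44 against 0.62). The same held in Jag antibody mice at 7 d (0.30 against 0.35), and in every other group it was above.

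Thyroid hormone in control mice gave the largest number of calls. Of the 48 members tested, 36 fell and 1 rose, where a call is an adjusted p under 0.05 from edgeR's quasi-likelihood test with Benjamini-Hochberg adjustment over 17079 genes. Over all genes tested, 22.9% fell and 20.3% rose, 43.2% in either direction. The members' median log2 fold change was -0.78, against 0.04 over all genes. The 5 mice of each group did not overlap for 33 members, all lower with hormone, against 15.2% of all genes lower and 14.6% higher without overlap.

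Among the alpha ring genes, which form the gate of the barrel, 6 of 7 fell, and their log2 fold changes ran from -1.18 to -0.65. Psma6 (ENSMUSG00000021024, GRCm38 chromosome 12, 55384222 to 55418454, plus strand), named after its values were seen, was the most abundant core subunit per length. Its log2 CPM was 8.31, 8.59, 8.16, 8.93 and 8.15 in control mice at 7 d and 7.57, 7.25, 7.07, 7.39 and 7.08 with hormone. Every mouse with hormone was below every mouse without it. The log2 fold change was -1.18 ± 0.20 (SE), a 2.26-fold lower level (adjusted p = 4.67e-05). Psma5 was the alpha gene without a call, at -0.65.

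All 7 constitutive beta ring genes fell, with a median log2 fold change of -1.10. Psmb6 (chromosome 11, 70525367 to 70527858, plus strand) encodes the subunit with caspase-like activity. Its log2 CPM was 7.37, 8.09, 7.46, 8.27 and 7.74 without hormone and 6.81, 6.23, 6.34, 7.00 and 6.33 with it. The ranges did not overlap, and the fold was 2.38 lower (log2 fold change -1.25 ± 0.28, adjusted p = 0.000627). Psmb7, which encodes the trypsin-like subunit, fell 1.78-fold (log2 fold change -0.83 ± 0.22, adjusted p = 0.00272) without overlap, and it shares 28.1% of its windows with Nek6 on the opposite strand. Psmb5, which encodes the chymotrypsin-like subunit and is the target of bortezomib, fell by 1.10 ± 0.30 on the log2 scale (adjusted p = 0.00395). Its values were 2.58, 2.98, 2.68, 3.39 and 2.96 without hormone and 1.69, 1.46, 1.31, 2.66 and 1.78 with it, and 1 mouse with hormone reached into the range without. Psmb3, a structural beta subunit, had the largest fall of the ring (-1.45 ± 0.30, adjusted p = 0.000344). Psmb3 and Psmb5 are the beta genes with the most shared sequence.

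The upstream sequences of Psmb5 and Psmb6 are shown because these genes of the cutting subunits fell together and both hold the core of the antioxidant response element, the DNA word read by Nfe2l1 and Nfe2l2. The sequences are from RefSeq (GRCm38.p6), 250 bases that end just before the transcription start, 5′ to 3′ on the gene's strand, at chr14:54617996-54618245 on the minus strand and chr11:70525107-70525356 on the plus strand. GENCODE starts the Psmb5 transcript inside this window. Capitals mark the match to TGACNNNGC.
Psmb5: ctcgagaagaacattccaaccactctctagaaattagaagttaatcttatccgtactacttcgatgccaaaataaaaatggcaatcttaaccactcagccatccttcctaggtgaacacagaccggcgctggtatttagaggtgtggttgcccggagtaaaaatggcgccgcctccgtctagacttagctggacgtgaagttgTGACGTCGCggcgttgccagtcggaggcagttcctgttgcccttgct
Psmb6: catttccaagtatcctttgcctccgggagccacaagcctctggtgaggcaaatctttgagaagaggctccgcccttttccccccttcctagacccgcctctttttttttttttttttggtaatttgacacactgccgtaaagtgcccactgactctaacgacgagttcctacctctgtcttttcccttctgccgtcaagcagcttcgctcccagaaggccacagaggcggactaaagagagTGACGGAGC
The match lies 47 to 39 bases before the start in Psmb5 and 9 to 1 bases before it in Psmb6. RefSeq upstream sequences of 250 bases were matched for 42 of the 50 genes by symbol or gene identifier, giving 45 windows. Searched on both strands, TGACNNNGC was in 11.1% of these windows (Psmb5, Psmb6, Psmc6, Psmd9 and Psmd12) and in 10.2% of all 32851 windows. The CCAAT box (CCAAT) was in 33.3% and 33.8%. The core of the interferon-stimulated response element was in 6.67% (Psmb3, Psmd4 and Psmd9) and 2.98%. The core of the gamma-activated site (TTCNNNGAA) was in 4.44% (Psmb8 and Psmg1) and 7.02%. TTCNNNGAA reads the same on both strands and can share letters with the interferon-stimulated core. A match describes the letters in the window only.

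In the 19S cap, 5 of the 6 ATPase genes fell, with log2 fold changes of -0.93 to -0.57, and Psmc6 did not pass the test (-0.32). Of the 3 non-ATPase base genes, Psmd4, a ubiquitin receptor, fell by 0.80 ± 0.19 (adjusted p = 0.000963). The large scaffold genes Psmd1 and Psmd2 did not pass and had positive values, 0.36 ± 0.18 and 0.19 ± 0.15. Their transcripts are 3112 and 2961 bases long, more than double that of Psmd4 (1332 bases). Of the 8 lid genes 6 fell, between -0.90 (Psmd8) and -0.53 (Psmd13). Psmd14, whose product cuts ubiquitin chains from the substrate, was among them at -0.55.

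The genes of the assembly chaperones, which build the particle and leave it, all fell: 4 of 4 for the 20S and 3 of 3 for the 19S. Psmg4 had the lowest log2 fold change of all members, -1.57 ± 0.41 (2.97-fold lower, adjusted p = 0.00237). Its log2 CPM was 3.06, 3.91, 2.87, 4.70 and 3.40 without hormone and 2.20, 1.42, 2.13, 2.99 and 1.71 with it. The groups overlapped in 1 mouse of each. Psmg4 has the shortest transcript among the members, 555 bases. Its call was lost with length and GC offsets (adjusted p = 0.0647), with offsets from the principal transcript (adjusted p = 0.123) and without control mice 2 and 4 (adjusted p = 0.106), and with the length slope as a covariate its value was 0.14. Psmg1, the partner of Psmg2 in alpha ring assembly, fell by 1.29 ± 0.25 (adjusted p = 0.000134) and did not overlap. The 19S chaperone Psmd9 fell by 0.98 ± 0.22 (adjusted p = 0.000687).

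The activators divided. Psme1 and Psme2 encode the interferon-inducible cap PA28 alpha and beta, and fell by 1.02 ± 0.26 (adjusted p = 0.00183) and 1.37 ± 0.26 (adjusted p = 0.000125), with overlap for Psme1 only. Psme2 stood at 4.45, 5.11, 4.47, 5.72 and 4.76 log2 CPM without hormone and at 3.76, 3.22, 3.54, 4.09 and 3.29 with it. Psme2b, whose reads cannot be separated from those of Psme2 with certainty, fell by 1.26 ± 0.27 (adjusted p = 0.000405). Psme4, which encodes the nuclear activator PA200, was the member that rose, by 0.46 ± 0.18 (1.37-fold, adjusted p = 0.0370), and its groups overlapped, at 6.76 to 7.52 without hormone and 7.24 to 7.93 with it. The call was lost without control mouse 2 or 4 (0.42 and 0.37, adjusted p = 0.0808 and 0.121), or without mouse 1, 2 or 5 with hormone (adjusted p = 0.0700, 0.101 and 0.0589). It has the longest transcript of the members, 6491 bases. Psme3, the nuclear PA28 gamma, was at 0.03 ± 0.11 and the inhibitor Psmf1 at -0.26, neither past the test. Psmc3ip, which is no proteasome gene, fell by 1.30 ± 0.32 (adjusted p = 0.00155).

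**Figure D3:**
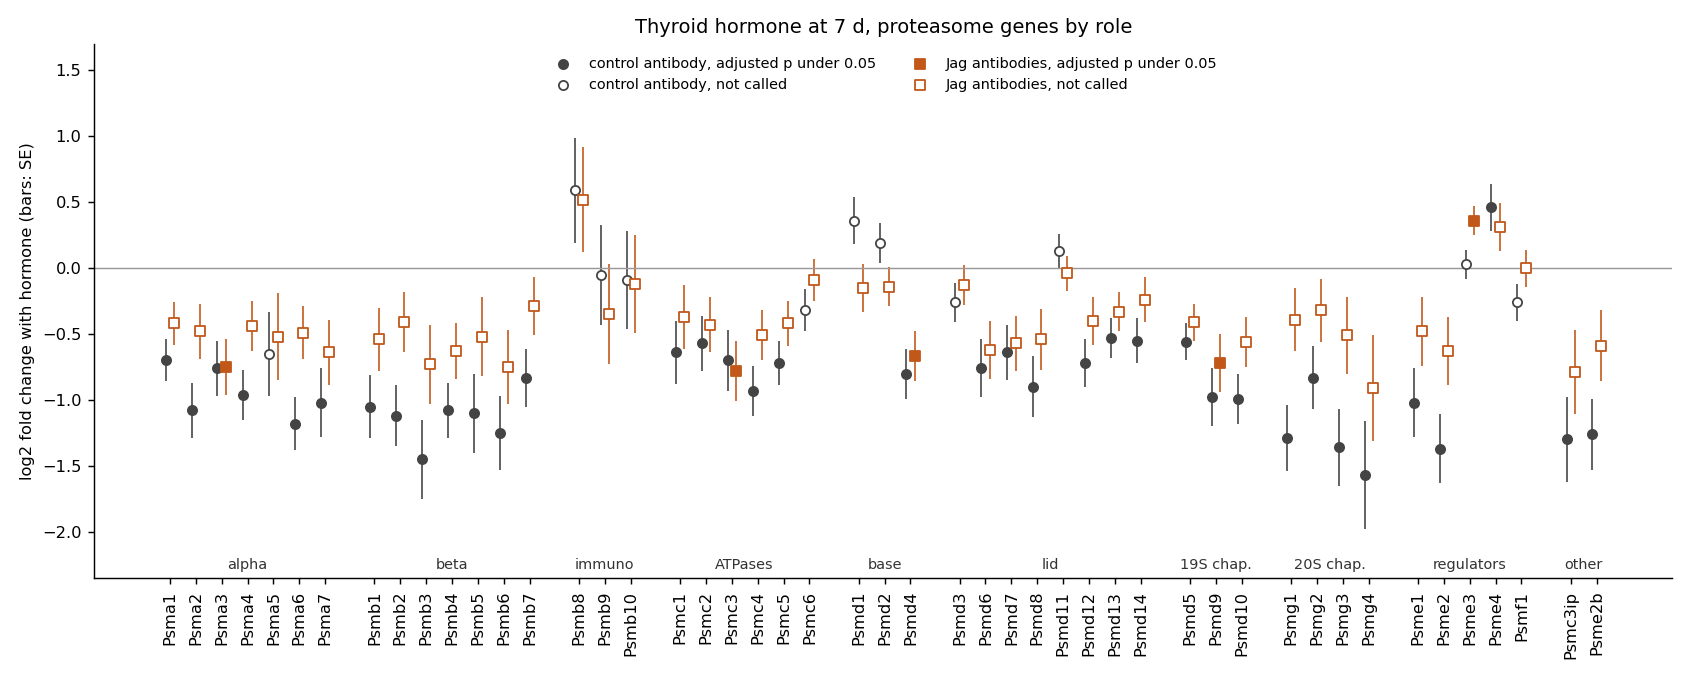
Log2 fold change with thyroid hormone at 7 d (bars, SE of the edgeR fit) for 48 members ordered by role, in control mice (grey circles) and in Jag antibody mice (orange squares); filled symbols passed the test. In control mice 36 members fell and only Psme4 rose, and in Jag antibody mice Psma3, Psmc3, Psmd4 and Psmd9 fell and Psme3 rose.

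The size of the fall followed transcript length. Across the 48 members, log2 fold change and length of the principal transcript had a Spearman rho of 0.75 and a Pearson r of 0.70, a description across genes that share the same 10 libraries. The 24 shorter members had a median of -1.05 and the 24 longer ones -0.57. With trends on exonic length and GC content as offsets, 29 members fell and 0 rose, with a median of -0.48. When the offsets used the principal transcript in place of all exons, 19 fell, 1 rose (Psmb8, 1.03, adjusted p = 0.0262), the median was -0.24 and rho was 0.07. With the length slope itself as a covariate, 1 fell (Psma6), 2 rose (Psmb8 and Psmb10) and the median was -0.11. The latter fit also takes up any part of the hormone change that runs with the slope, because the slopes of the 2 groups do not overlap. Shares of all genes called are given for the main fit only. Counts from these and the other alternative fits below therefore describe the members alone and cannot be set against all genes.

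Scaling and single mice mattered too. Scaling by library totals moved the median of all genes to 0.48, and 17 members fell and 6 rose, with a median of -0.29. Without control mice 2 and 4 at 7 d, the pair with the steepest slopes, 21 fell and 0 rose. Of the 36 falls, 12 held when these mice were left out, with both kinds of offsets and with library totals: Psma2, Psma6, Psmb1, Psmb3, Psmb4, Psmb6, Psmc4, Psmd9, Psme2, Psmg1, Psmg3 and Psmc3ip. Psma6 was the 1 member that also held with the slope as a covariate, and its log2 fold change was -1.18, -0.93, -0.34, -0.31, -0.68 and -0.51 in the main fit and in these alternatives in turn.

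**Figure D4:**
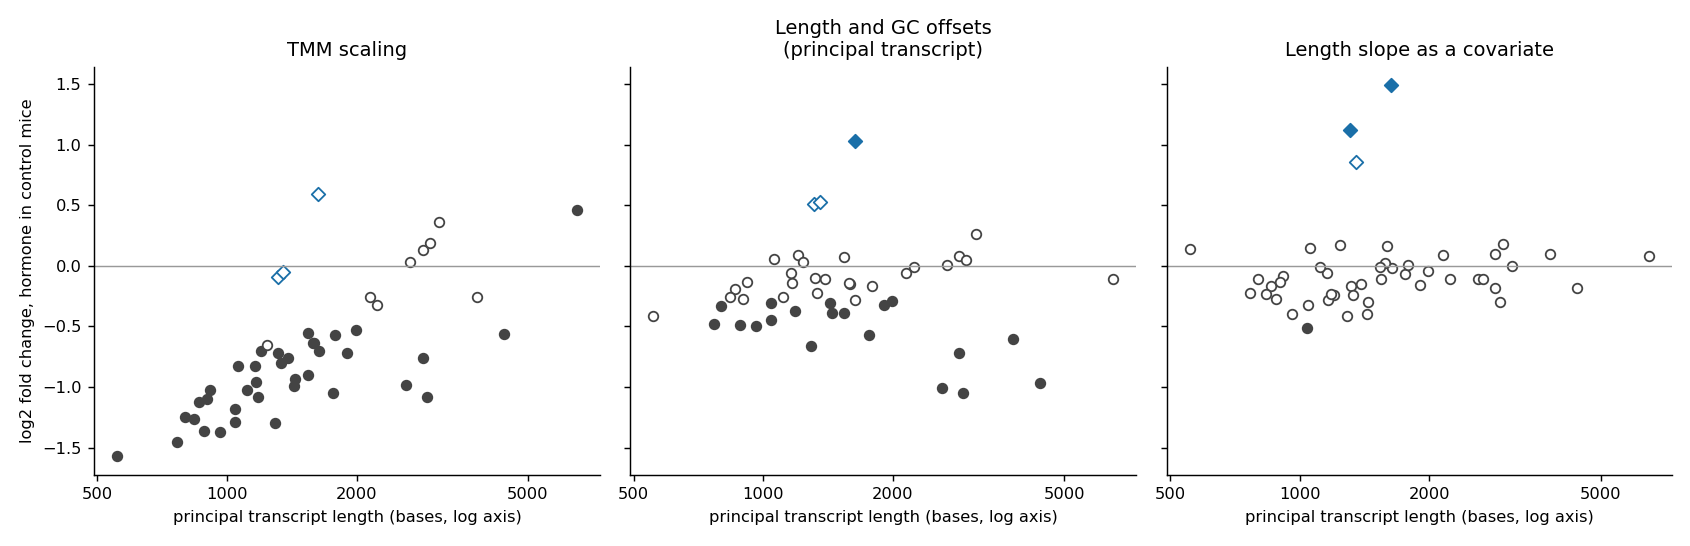
Log2 fold change with hormone in control mice against principal transcript length (log axis) for 48 members under 3 fits; blue diamonds are Psmb8, Psmb9 and Psmb10 and filled symbols passed the test. At the left the values climb with length (rho 0.75), in the middle they do not (rho 0.07), and at the right 45 grey and 3 blue points remain with 3 calls.

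Markers of other cells moved in the same comparison. With hormone 6 of 10 myeloid markers rose, their sum being 112 to 274 CPM in control mice without and 551 to 1110 CPM with it. Of 10 brown adipocyte markers 5 fell, Ucp1 among them (sums of 33200 to 70100 and 10900 to 17300 CPM), and 9 of 10 proliferation genes rose. No list had a marker at 0 in all mice. Their part in the fall of the proteasome genes was not tested, and in bulk tissue fewer cells of a type and less RNA per cell cannot be told apart.

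Thyroid hormone in the Jag antibody mice gave 4 members that fell (Psma3, Psmc3, Psmd4 and Psmd9) and 1 that rose (Psme3), against 5.21% and 4.29% of all genes, 9.5% in either direction. Of the 48 members 44 had a negative value, the median was -0.46 and that over all genes was -0.04. Without overlap between groups, 16 members were lower, against 6.82% of all genes, and 1 was higher, against 5.23%. Psmc3 encodes an ATPase of the ring, and its log2 CPM was 8.36, 7.20, 7.07, 7.41 and 7.12 without hormone and 6.81, 6.94, 6.61, 6.66 and 6.68 with it. The first mouse (mouse 6) was far above the others. The log2 fold change was -0.78 ± 0.23 (adjusted p = 0.0297), and it was -0.46 (adjusted p = 0.168) without mouse 6. Leaving out mouse 9 without hormone, or mouse 8, 9 or 10 with it, moved it by little (-0.80 to -0.75) but ended the call (adjusted p = 0.0532 to 0.0719).

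Psma3 fell by 0.75 ± 0.21 (adjusted p = 0.0193), from 3.16 to 3.68 log2 CPM without hormone to 2.68 to 2.86 with it. Its counts are low, part of its sequence is shared, and its adjusted p was 0.0522 without mouse 7 without hormone. Psmd4 fell by 0.67 ± 0.19 (adjusted p = 0.0203) and Psmd9 by 0.72 ± 0.22 (adjusted p = 0.0342), neither with overlap. The Psmd9 call was lost without mouse 7, 9 or 10 without hormone or mouse 6, 7, 8 or 9 with it (-0.74 to -0.65, adjusted p = 0.0583 to 0.0961). Psme3 rose by 0.36 ± 0.11 (1.28-fold, adjusted p = 0.0296). It stood at 6.25, 6.59, 6.66, 6.60 and 6.42 without hormone and at 6.86, 6.73, 6.98, 6.76 and 6.97 with it. Every mouse with hormone was above every mouse without. Psme3 kept its call with length and GC offsets (0.42), offsets from the principal transcript (0.31) and the slope as a covariate (0.30), and lost it without mouse 6 or 10 without hormone or mouse 8 or 10 with it (0.30 to 0.34, adjusted p = 0.0574 to 0.0716). All 4 falls kept their calls with both kinds of offsets and lost them with the slope as a covariate (-0.48 to -0.31, adjusted p = 0.0506 to 0.0925). The slope, library totals, limma or no filter on low counts each left 1 call among the members, whereas in a fit of only these 2 groups 17 fell and 1 rose. With hormone in Jag antibody mice 3 of 10 myeloid markers rose (sums of 143 to 618 and 433 to 1740 CPM), 2 of 10 brown adipocyte markers fell and 8 of 10 proliferation genes rose, and their part was not tested.

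The difference between the hormone changes of both antibody groups, tested as an interaction in edgeR, was called for 0 of 48 members. An unadjusted p under 0.05 was found for 6 of 48 members and 2103 of 17079 genes, which are near the same share. DESeq2 also called 0. Over all genes the test called 0.00586%. The members' median interaction was 0.31, against -0.07 over all genes. The largest was that of Psmg1, 0.90 ± 0.34 (adjusted p = 0.374). The hormone changes were therefore not shown to differ between the antibody groups.

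The immunoproteasome genes were not among the members called. In control mice, hormone gave 0 calls among the 3, with log2 fold changes of 0.59 ± 0.40 for Psmb8, -0.05 ± 0.38 for Psmb9 and -0.09 ± 0.37 for Psmb10. Psmb8 (chromosome 17, 34197721 to 34201454, plus strand) stood at 4.55, 4.37, 4.15, 5.56 and 4.33 log2 CPM without hormone and at 4.89, 4.32, 5.62, 6.06 and 4.82 with it. The groups overlapped, with mouse 4 high in the first. Psmb8 was called higher with library totals (1.13, adjusted p = 0.0259), with offsets from the principal transcript and with the length slope as a covariate (1.49, adjusted p = 0.0259), and Psmb10 with the latter only (1.12, adjusted p = 0.0181). In Jag antibody mice the 3 values were 0.52, -0.35 and -0.12, none past the test.

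The highest group mean of each was at 15 h. Psmb8 was at 5.08, 6.23, 6.38, 4.75 and 5.38 in control mice and at 5.38, 6.05, 6.79, 4.69 and 6.95 in Jag antibody mice. Each group at 15 h held mice that differed by more than 1.5 on the log2 scale. Psmb9 ran from 3.56 to 4.97 and from 3.41 to 5.45, and Psmb10 from 4.62 to 6.01 and from 4.25 to 6.04. No antibody comparison called any of the 3 genes at 15 h, 5 d or 7 d. At 7 d with hormone all 3 had negative antibody values, from -0.76 (Psmb9) to -0.30 (Psmb8), none past the test. Myeloid markers at 15 h summed to 299 to 6280 CPM in control mice and 289 to 566 CPM in Jag antibody mice. Control mice 2 and 3 had the highest myeloid scores of their group (8.61 and 6.67, mean log2 level of the markers) and the highest Psmb8 (6.23 and 6.38). The Jag antibody mice at 15 h were mixed. Mice 8 and 10 had the highest scores (5.07 and 4.70) and the highest Psmb8 (6.79 and 6.95). Mouse 7 had the lowest score (3.21), yet its Psmb8 (6.05) was above that of mice 6 and 9 (5.38 and 4.69). Lymphocyte markers summed to 111 CPM in Jag antibody mouse 6 at 15 h, against 4.72 in the lowest mouse of that group, and Psmb8 was 5.38 in mouse 6. The part of these cells in the spread of Psmb8 was not tested.

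Each immunoproteasome subunit was then set against the constitutive subunit whose place it takes, as a log2 ratio of CPM in the same mouse. These 18 tests were added after the data were seen, and the exact two-sided permutation test of 5 against 5 mice cannot go below 0.00794. The Psmb8 to Psmb5 ratio was 1.98, 1.39, 1.47, 2.17 and 1.36 in control mice at 7 d and 3.20, 2.86, 4.31, 3.41 and 3.03 with hormone. The ratio was higher in every mouse with hormone than in every mouse without it, and the group means differed by 1.69 (exact permutation p = 0.00794, adjusted p = 0.0476 over 18 tests). In Jag antibody mice the ratio rose by 0.99, from 1.52 to 2.38 without hormone to 2.66 to 3.72 with it (exact permutation p = 0.00794, adjusted p = 0.0476). The Psmb9 to Psmb6 ratio rose by 1.13 in control mice (exact permutation p = 0.00794, adjusted p = 0.0476), and its change of 0.39 in Jag antibody mice did not pass (exact permutation p = 0.127). The Psmb10 to Psmb7 ratio changed by 0.64 and 0.13, neither past the test, and no antibody comparison passed for any ratio. Psmb5, Psmb6 and Psmb7 had already been called lower with hormone in control mice, and no immunoproteasome gene had been called. The higher ratios in control mice are therefore not separate from the fall of the constitutive genes. Each adjusted p of 0.0476 also rests on several tests lying at the lowest p that the test can give.

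Psmb5 has 29 to 161 counts per library and shares 57.1% of its windows, so the first ratio carries that uncertainty. With the length and GC trend of the principal transcript removed, the 3 differences that passed became 1.25, 0.78 and 0.79. By the same exact test p was 0.0159, 0.00794 and 0.0635, with adjusted p = 0.143, 0.143 and 0.262. Among these 3, only Psmb8 to Psmb5 in Jag antibody mice (0.78) still had groups without overlap. Its exact permutation p = 0.00794 is the lowest this test can give, so the adjustment over 18 tests ended that call. Myeloid markers, whose cells are known to carry the immunoproteasome, rose with hormone as given above, and their part in the ratios was not tested. Psmb9 shares 12.5% of its windows with Tap1 on the opposite strand, and whether counting used the strand is not given in the sources used here.

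**Figure D5:**
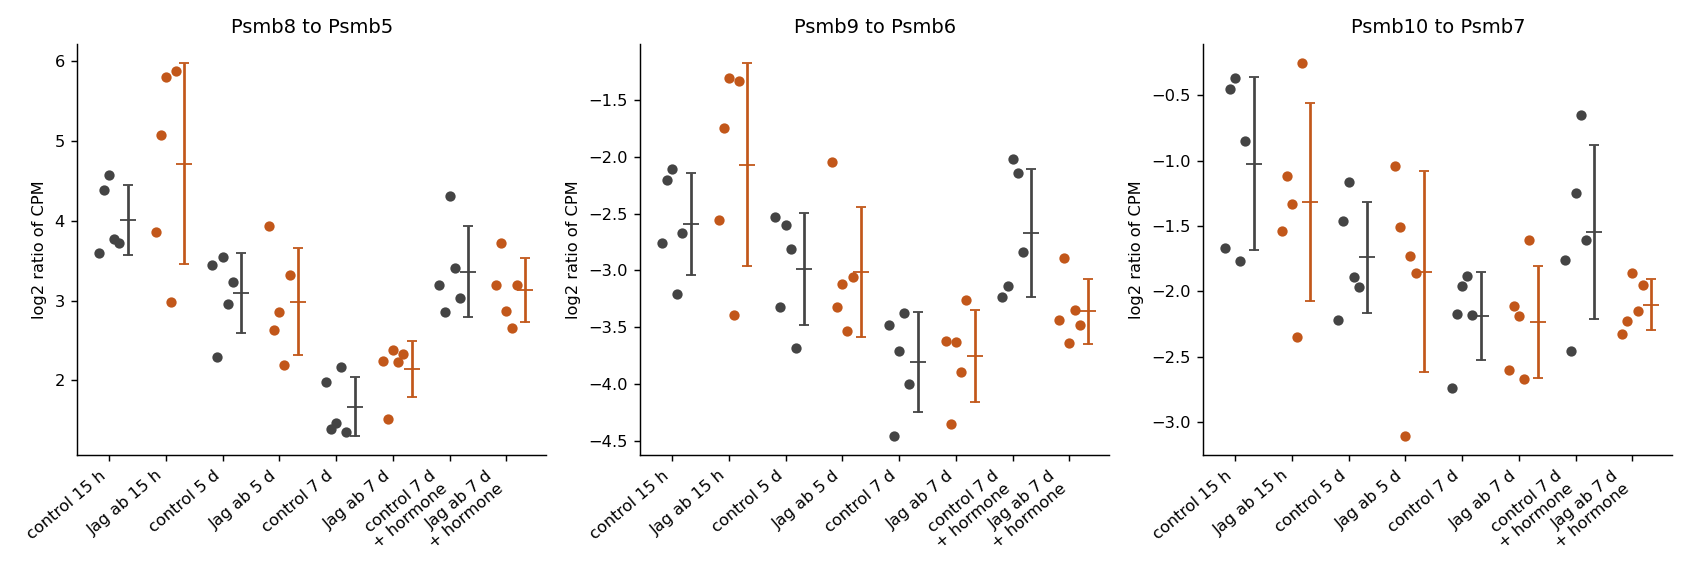
Log2 ratio of CPM of each immunoproteasome subunit to its constitutive counterpart, 1 point per mouse (control antibody in grey, Jag antibodies in orange), with mean and SD, n = 5 per group. The Psmb8 to Psmb5 ratio is lowest in control mice at 7 d (1.36 to 2.17) and higher with hormone (2.86 to 4.31).

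The Jag antibodies changed few members. At 15 h edgeR called 0 of 48 members, with 0 at an unadjusted p under 0.05 and 0 by DESeq2, against 1.14% of all genes (0.234% higher, 0.902% lower). Without overlap, 0 members were higher and 1 lower at 15 h, against 1.56% and 0.919% of all genes. At 7 d it called 0 members, against 2.5% of all genes (1.21% higher, 1.29% lower), with an unadjusted p under 0.05 for 13 of 48 members and 3504 of 17079 genes. Without overlap, 0 were higher and 3 lower, against 1.72% and 1.6%. The median at 7 d was -0.34, against 0.05 over all genes, and 45 of the 48 values were negative. With length and GC offsets the median was -0.23, and with the length slope as a covariate -0.03. At 7 d DESeq2 called 1 member lower. Under hormone the antibody comparison called 0 members by either tool, against 1.14% of all genes (0.697% higher, 0.439% lower), with 1 at an unadjusted p under 0.05 and a median of -0.02. Without overlap, 0 were higher and 2 lower, against 3.98% and 2.61%.

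At 5 d Psmd6, a lid subunit, was the 1 member called. It fell by 0.75 ± 0.22 (1.68-fold lower, adjusted p = 0.0327), against 8.02% of all genes called, 5.93% lower and 2.09% higher. Without overlap, 0 members were higher and 1 lower, against 1.78% and 3.16%. Its log2 CPM was 5.82, 6.54, 6.47, 6.16 and 7.62 in control mice and 5.91, 6.16, 5.74, 6.00 and 5.72 under the Jag antibodies. The groups overlapped and control mouse 5 stood alone at the top. Without that mouse the log2 fold change was -0.40 (adjusted p = 0.262). It was -0.77 to -0.70 without Jag antibody mouse 6, 8, 9 or 10 (adjusted p = 0.0572 to 0.0836). A fit that held the muscle score fixed gave -0.46 (adjusted p = 0.522). With length and GC offsets 7 members were called at 5 d, 3 of them higher, and Psme1 and Psme2 were then at 0.57 and 0.52 (adjusted p = 0.0339 and 0.0459). All 31 core subunits had a value at or below 0 in the main fit at 5 d, with a median of -0.27, against 0.04 over all genes. These genes share the same libraries, and the core levels of the groups overlapped. Control mice 2 and 5 had the highest core levels of their group (0.46 and 0.90). With the length and GC trend of the principal transcript removed, the mean core level was -0.01 in control and -0.11 in Jag antibody mice.

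Genes that work with the proteasome but lie outside the Psm names were read from fixed lists. Of 10 tested partners, 4 fell with hormone in control mice and 0 rose, against 22.9% and 20.3% of all genes, and 0 of 10 were called with hormone in Jag antibody mice. Sem1, a small lid subunit, fell by 1.90 ± 0.41 (adjusted p = 0.000446), Pomp, the chaperone that starts beta ring assembly, by 1.04 ± 0.28 (adjusted p = 0.00299), and Uchl5, a deubiquitinase of the cap, by 0.57 ± 0.18 (adjusted p = 0.0128, and 0.0597 without control mouse 4). With the length and GC trend of the principal transcript removed, Sem1 was at 6.74 to 8.76 without hormone and 6.09 to 7.53 with it. Pomp was then at 6.58 to 7.20 and 6.21 to 6.60, so the groups overlapped for both genes. Txnl1, a redox partner of the cap, fell by 0.69 ± 0.18 with hormone in control mice (adjusted p = 0.00214) and by 0.69 ± 0.18 with the Jag antibodies at 7 d (adjusted p = 0.0312), comparisons that share the control mice at 7 d. The antibody call was lost without control mouse 2 or 4 or Jag antibody mouse 8 or 10 (-0.64 to -0.53, adjusted p = 0.0758 to 0.141). The deubiquitinase Usp14 (0.08) did not pass. The receptor Adrm1 had 0 to 26 counts per library, too few to describe its change.

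The transcription factors were not called in any comparison. With hormone in control mice Nfe2l1 was at 0.16 ± 0.17 and Nfe2l2 at -0.07 ± 0.17. Ngly1, which encodes the glycanase that activates the Nfe2l1 protein, fell by 0.42 ± 0.14 (adjusted p = 0.0139), with adjusted p = 0.0505 and 0.0518 without control mouse 1 or 2. RNA levels say nothing of the cleavage that controls Nfe2l1.

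Of 11 tested ubiquitin genes, 3 rose and 3 fell with hormone in control mice, near the shares of all genes (20.3% and 22.9%). The polyubiquitin gene Ubb fell by 0.77 ± 0.27 (adjusted p = 0.0218). The shuttle gene Ubqln2 rose by 1.31 ± 0.25 (adjusted p = 0.000150). The ubiquitin-activating enzymes Uba6 and Uba1 rose by 0.85 ± 0.29 (adjusted p = 0.0164) and 0.44 ± 0.13 (adjusted p = 0.00740). Uba1 also rose in Jag antibody mice, by 0.49 ± 0.13 (adjusted p = 0.0156, and 0.0513 without mouse 10 with hormone). Ubb and Uba6 lost their calls without control mouse 4 or mouse 2 with hormone, and Ubb also without mouse 5 with hormone (adjusted p = 0.0545 to 0.0819).

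Of 14 genes of class I antigen presentation and the interferon-gamma response, 6 rose and 0 fell with hormone in control mice, against 20.3% and 22.9% of all genes, and 0 were called with hormone in Jag antibody mice. Gbp3, an interferon-induced GTPase, rose by 1.75 ± 0.42 (adjusted p = 0.00126), and Tap1, which carries proteasome products into the endoplasmic reticulum, by 1.26 ± 0.37 (adjusted p = 0.00617). Its change in Jag antibody mice was 0.02 and the difference was not called (interaction -1.24, adjusted p = 0.374).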

How the data were processed

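The authors deposited whole-number counts per Ensembl gene, 1 column per mouse, and an FPKM table, per the file headers. From their values, each FPKM is the count divided by a library factor, equal to the median-of-ratios size factor, and a gene length. The submitters' processing notes name GSNAP and limma; the counting program, its treatment of strand and of reads with several matches, and the build are not given in the sources used here. Symbols were found for 52403 of 52636 identifiers, and lengths and coordinates came from GENCODE M21 (GRCm38).

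Counts were fitted with edgeR 4.0.16 in R 4.3.3 (filterByExpr over groups, TMM, robust quasi-likelihood, 1 model over 40 libraries), with Benjamini-Hochberg adjustment over 17079 genes at 0.05. Expression values are log2 CPM with a prior count of 2. SE is that implied by the F statistic. The labels give separate mice and no other replicate level. Pair ratios were compared by exact permutation over 252 arrangements. Alternatives were DESeq2 1.42.0, RLE factors, no filter, only the groups compared, a muscle score, limma 3.58.1 on log2(FPKM + 1), length and GC offsets, a replicate block and leaving out each mouse. Chosen after seeing the data were library totals, the length slope as a covariate, principal transcript offsets and leaving out control mice 2 and 4 at 7 d. A shared window is a run of 50 bases of the principal transcript found, on either strand, in a transcript of another gene.

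Named genes were Psmb8, Psmb9, Psmb10, Psmb5, Psmb6, Psmb7, Psme1 and Psme2, up to 3 called members per direction and comparison by size, members that match by symbol only or failed the filter, 7 partners, and up to 2 called genes per related list and direction. Other members named in the text (Psma6, Psmg1, Psmd4, Psmd1, Psmd2 and those listed by call) were chosen after their values were seen. Some genes of the related lists that meet this rule are not reported here. Members and lists were chosen with earlier results of these data known. The method was tested on simulated counts before use.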

Additional observations from a re-analysis of the deposited data

Results flagged for a closer look

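Of 152 groups of 5 mice examined over 19 measures, 6 held a mouse set apart from the rest of its group by Dixon's test at 95%. Chance alone sets apart about 1 group in 20. Psmb8 was 5.56 log2 CPM in control mouse 4 at 7 d, with the nearest mouse at 4.55, and Psmb9 was 4.91 in the same mouse, with the nearest at 3.89. Psmc3 was 8.36 in Jag antibody mouse 6 at 7 d, with the nearest at 7.41. Psma3 was 2.86 in Jag antibody mouse 6 at 7 d with hormone, a gap of small size to the nearest at 2.73. Control mouse 4 at 7 d with hormone was high for Psmd9 (4.52, nearest 4.06) and for Psme2b (6.06, nearest 5.49).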

How the results depend on the processing

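Members called with hormone in control mice (37) became 21 without control mice 2 and 4 at 7 d, 3 with the length slope as a covariate, 23 with library totals and 20 with principal transcript offsets, and 33 to 38 when 1 mouse was left out. With hormone in Jag antibody mice (5) they became 8 with length and GC offsets, 1 with the slope, library totals, limma or no filter, 18 in a fit of only the groups compared, and 2 to 8 when 1 mouse was left out. At 5 d (1) they became 2 with DESeq2 or RLE factors, 7 with length and GC offsets, 6 with the slope, 5 with principal transcript offsets, 0 with library totals, limma, the muscle score or only the groups compared, and 0 to 6 when 1 mouse was left out. At 7 d (0) DESeq2 gave 1 and leaving out 1 mouse 0 to 1. The other comparisons and the interaction stayed at 0 in every alternative run, leaving out 1 mouse included (0 to 0). Of the 36 falls with hormone in control mice, 5 turned sign with the slope (Psmc1, Psmc2, Psmd7, Psmg2 and Psmg4) and 3 with principal transcript offsets (Psma1, Psmd14 and Psmg2). Among genes named by the rule, signs turned for Psmg4 (0.14), Pomp (0.05), Uchl5 (0.06) and Uba6 (-0.18) with the slope, Psme4 (-0.11) with principal transcript offsets and Ngly1 (0.05) with library totals; the cause was not tested.

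Same-numbered mice are different animals, and the main fit did not pair them. Their deviations correlated at -0.316 to 0.639 in control and -0.290 to 0.668 in Jag antibody mice (means 0.175 and 0.16). Not every mouse correlated best with its own number. With so few mice, these correlations cannot tell whether the numbers mark a shared factor. With the replicate block 37 members were called in control and 5 in Jag antibody mice, 28 and 6 when length and GC offsets were added to the block, and 0 for the interaction either way. Antibody comparisons share no numbers. Low counts limit Psma5, Psmb5, Psmc3ip, Psma3 and Adrm1.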
